A study of Mus musculus with 19 samples.

Results

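Heat-shock chaperone genes were examined in mouse mammary glands and tumors. The genes are Hspa1a, Hspa1b, Dnajb1, Hsph1, Bag3, Hspb1, Hspa8, Hsp90aa1, Hspd1 and Hspe1, chosen by symbol and matched to the table of normalized counts by Ensembl identifier. All 10 were found among the 46078 genes of the table, each with 1 entry, and all 10 passed the filter on low values in each comparison. RNA was sequenced in bulk from 19 libraries to ask how mutant p53 in fibroblasts bears on mammary glands and tumors of mice that carry the neu oncogene. MMTV-neu mice gave 4 groups of 4 libraries, and Wild Type mammary glands gave 3 libraries (MG WT), described in the study as age-matched normal controls. Glands with wild-type p53 in fibroblasts (MG N) have the label MMTV-neu;Fsp-Cre in replicate 1, and in replicates 2, 3 and 4 the label MMTV-neu;p53wm-R172H/+, which carries the conditional mutant allele without Cre. Tumors with wild-type p53 in fibroblasts (T N) are MMTV-neu;Fsp-Cre throughout. Glands (MG NP) and tumors (T NP) with mutant p53 in fibroblasts are MMTV-neu;p53wm-R172H/+;Fsp-Cre. The MMTV promoter drives neu in mammary epithelium, Fsp-Cre drives Cre in fibroblasts, and only cells with Cre convert the p53 allele to its mutant form. The neu mice were of a mixed FVB, C57 and BALB/c background, and their glands came from tumor-bearing mice but had no malignant lesion. Ages in days or weeks are not given in the labels.

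Heat-shock chaperones bind unfolded or misfolded proteins and help them fold, keep them from clumping or pass them on for degradation. Inducible forms are switched on by heat-shock factor 1 when cells meet heat or other stress to their proteins, whereas constitutive forms serve protein folding in unstressed cells. In mammary tumors, chaperones of the HSP90 family are known for stabilizing ERBB2, the protein that the neu oncogene encodes.

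Each MG WT library held 54677315 to 62645459 reads on genes, and the other 16 libraries held 20899152 to 27262440. A normalized count that stands for 3 reads was 1.28 to 4.28 in a library, and the lowest value of any member was 98.6, so no member was near the limit of detection. Replicates are labelled as separate samples and described as biological replicates, and the library names of T NP replicates 1 and 2 share a number whose meaning is not stated. The p-values therefore measure the spread between these samples. Values below are given in the order of replicate number.

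Several libraries stood apart in markers of other tissues. The 17 skeletal muscle markers summed to 459369, 3241136, 13998 and 1818096 normalized counts in MG NP, to 463 to 19973 in MG N and to 258, 236 and 271 in MG WT. Their most abundant gene, Myh4, was at 136499.9, 1032705, 4721 and 465029.6 in MG NP, so replicates 2 and 4 held most of the signal. The muscle sum was at most 7647 in T NP, so MG NP did not overlap with MG WT or T NP. In comparisons of MG NP with those groups, a fit with a muscle marker score as a covariate cannot separate the score from the group. The 7 brown adipocyte markers summed to 85961 in MG NP replicate 4, with Ucp1 at 56926, against at most 6596 in any other library. The 9 white adipocyte markers summed to 366021, 351271, 300271 and 411034 in MG N and to 148248 to 388588 in MG NP. In MG WT the same markers summed to 4642, 5441 and 4003, and Adipoq, a defining fat cell gene, was at 1.70, 23.4 and 9.80 against 47029, 38360.2, 36543 and 41765 in MG N. Fat cell markers were thus scarce in the libraries labelled as wild-type mammary gland, whereas luminal and basal epithelial markers were present there at sums of 86871 to 100534 and 57088 to 69995. In MG N the epithelial sums were 14738 to 34661 and 9852 to 22698. In bulk samples, fewer cells of a type and less RNA per cell cannot be told apart.

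Hspa1a and Hspa1b encode the inducible HSP70, the chaperone that rises most steeply under heat stress. They lie side by side on the minus strand of chromosome 17 (GRCm38), Hspa1a (ENSMUSG00000091971) at chr17:34969190-34972156 and Hspa1b (ENSMUSG00000090877) at chr17:34956436-34959238. Normalized counts of Hspa1a were 12373, 10684 and 6393 in MG WT glands, 116, 314, 98.6 and 125 for MG N and 132, 521, 192 and 191.1 for MG NP. In the tumors Hspa1a stood at 552, 1220.1, 458 and 407 for T N and at 399, 364, 418 and 531 for T NP. The 3 MG WT libraries were far above the other 16, and the tumor libraries lay between MG WT and most of the neu glands. Within the tumors, T N replicate 2 was the highest, and MG NP replicate 2 reached the level of the tumors. The mean of Hspa1a was 9816 ± 3083 (SD, n = 3) in MG WT and 163 ± 101 (SD, n = 4) in MG N. Compared with MG WT, Hspa1a was lower in MG N (log2 -6.01, SE 0.41, adjusted p = 1.31e-05), which is a 64.5-fold higher level in MG WT. It was also lower in MG NP (log2 -5.39, SE 0.47, adjusted p = 2.65e-04). In tumors the difference from MG WT was smaller, with log2 -3.99, SE 0.40, adjusted p = 1.98e-04 in T N and log2 -4.48, SE 0.23, adjusted p = 2.17e-06 in T NP. T N was higher than MG N in Hspa1a (log2 2.03, SE 0.45, adjusted p = 0.00578), with no overlap between the groups. T NP against MG NP missed the threshold (log2 0.92, SE 0.39, adjusted p = 0.0727), and MG NP replicate 2 lay above 3 of the 4 tumors; without that library Hspa1a passed it (log2 1.32, adjusted p = 0.00249), as it did with MG NP replicates 2 and 4 both left out, an alternative chosen after seeing the data (log2 1.41, adjusted p = 0.00266).

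Normalized counts of Hspa1b were 24959, 20125 and 12643 in MG WT glands, 451, 521, 279.9 and 333 for MG N and 377, 982, 496 and 238 for MG NP. In the tumors Hspa1b stood at 975, 3945, 1052 and 794 for T N and at 867, 869.8, 977 and 1543 for T NP. As with Hspa1a, every MG WT library was above all other libraries, MG WT replicate 3 was the lowest of its group, and T N replicate 2 was the highest tumor. The mean of Hspa1b was 19242 ± 6205 (SD, n = 3) in MG WT and 396 ± 109.6 (SD, n = 4) in MG N, a 48.0-fold difference on the fitted scale. Hspa1b was lower than in MG WT in MG N (log2 -5.59, SE 0.28, adjusted p = 3.14e-06) and in MG NP (log2 -5.34, SE 0.47, adjusted p = 2.73e-04). Lower values by a smaller margin were found in T NP (log2 -4.16, SE 0.27, adjusted p = 5.85e-06). In T N the difference from MG WT was log2 -3.79, SE 0.54, adjusted p = 8.58e-04. Between tumors and glands, Hspa1b was higher in T N than in MG N (log2 1.80, SE 0.48, adjusted p = 0.0133), with no overlap. T NP was also called higher than MG NP (log2 1.17, SE 0.40, adjusted p = 0.0351), although MG NP replicate 2 overlapped with the tumors. That call was lost without MG NP replicate 1 (log2 1.08, adjusted p = 0.08), replicate 3 (log2 1.21, adjusted p = 0.053) or replicate 4 (log2 0.86, adjusted p = 0.0697). It was also lost without T NP replicate 1 (log2 1.26, adjusted p = 0.0522), replicate 2 (log2 1.26, adjusted p = 0.055), replicate 3 (log2 1.20, adjusted p = 0.0632) or replicate 4 (log2 0.98, adjusted p = 0.0937). The edgeR fit did not call it either (log2 1.04, adjusted p = 0.0602), nor did the fit with the muscle marker score as a covariate (log2 1.49, adjusted p = 0.157). With the replicate number as a block the call was lost as well (log2 1.17, adjusted p = 0.0734), as it was with T NP replicates 1 and 2 averaged (log2 1.26, adjusted p = 0.0533). Hspa1a made up 33.1, 34.7 and 33.6% of the sum of the pair in MG WT and from 20.4 to 44.6% in the other libraries. Reads of the pair are hard to separate, since 52.7% of the 75-base words of the Hspa1a transcript also occur in Hspa1b and 55.8% of those of Hspa1b occur in Hspa1a. Gm20481, on the opposite strand, shares 2225 bases with Hspa1a, and the strand setting used for counting is not given in the sources used here.

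**Figure D1:**
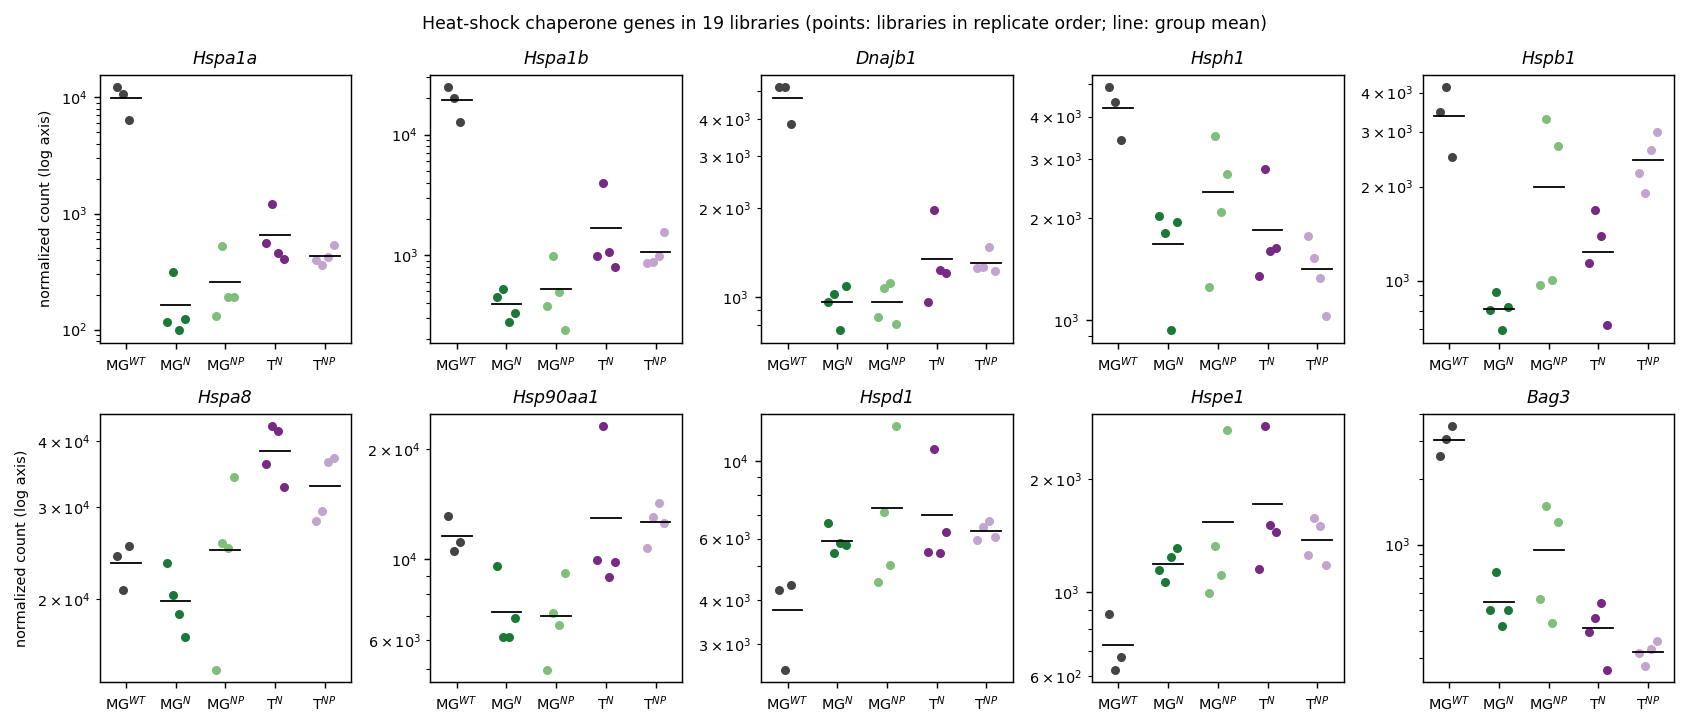
Normalized counts on a log axis for each of the 10 heat-shock chaperone genes in the 5 groups, with each point a library and each bar the group mean. The 3 MG WT libraries lie above the other 16 for Hspa1a, from 6393 to 12373, and for Hspa1b, from 12643 to 24959.

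Dnajb1 (ENSMUSG00000005483, chr8:83608193-83612653, plus strand) encodes an inducible J-domain protein that delivers substrates to HSP70 and stimulates its ATPase. Normalized counts of Dnajb1 were 5129, 5157 and 3846 in MG WT glands, 958, 1019, 770.1 and 1092 for MG N and 855, 1070.5, 1116 and 809.6 for MG NP. In the tumors Dnajb1 stood at 960.0, 1968, 1237 and 1207 for T N and at 1250.1, 1265, 1470.3 and 1222 for T NP. Again the MG WT libraries were above all others, and T N replicate 2 came next. Dnajb1 was lower than in MG WT by the same size in MG N (log2 -2.29, SE 0.16, adjusted p = 1.59e-05) and MG NP (log2 -2.29, SE 0.18, adjusted p = 1.81e-04). The tumors differed less from MG WT, by log2 -1.85, SE 0.25, adjusted p = 6.77e-04 in T N and log2 -1.85, SE 0.14, adjusted p = 9.49e-06 in T NP. Tumors against glands did not reach a 2-fold difference, with log2 0.44, SE 0.23, adjusted p = 0.128 in the N pair, where the groups overlapped. In the NP pair all 4 tumors were above all 4 glands (log2 0.45, SE 0.15, adjusted p = 0.0284), under 2-fold.

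Hsph1 (ENSMUSG00000029657, chr5:149614287-149636376, minus strand) encodes HSP110, which exchanges the nucleotide of HSP70 and helps it dissolve aggregates. Normalized counts of Hsph1 were 4899.7, 4429 and 3406 in MG WT glands, 2033, 1810.1, 934 and 1957 for MG N and 1253, 3503, 2093 and 2709 for MG NP. In the tumors Hsph1 stood at 1349, 2805, 1598 and 1634 for T N and at 1776, 1529.7, 1338 and 1028 for T NP. The MG WT libraries were high, but MG NP replicate 2 exceeded MG WT replicate 3, and MG N replicate 3 was the lowest of all 19 libraries. Hsph1 was called lower than in MG WT in MG N (log2 -1.38, SE 0.28, adjusted p = 0.00316). The same held for T N (log2 -1.24, SE 0.26, adjusted p = 0.00514) and T NP (log2 -1.59, SE 0.20, adjusted p = 1.54e-04), without overlap in any of these comparisons. In MG NP the difference missed the threshold (log2 -0.91, SE 0.34, adjusted p = 0.0604). Without MG NP replicate 2 Hsph1 was called there (log2 -1.13, adjusted p = 0.0253), as it was with MG NP replicates 2 and 4 both left out (log2 -1.37, adjusted p = 0.00489). Over all alternatives tried the MG NP difference from MG WT ran from log2 -1.70 to -0.63. Tumors and glands overlapped in Hsph1, with log2 0.14, SE 0.30, adjusted p = 0.725 in the N pair and log2 -0.68, SE 0.31, adjusted p = 0.0903 in the NP pair. In the NP pair the alternatives ran from log2 -0.96 to -0.22.

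Bag3 (ENSMUSG00000030847, chr7:128523616-128546981, plus strand) encodes a cochaperone that links HSP70 to small heat-shock proteins and to autophagy, and it is abundant in muscle. Normalized counts of Bag3 were 2569.5, 3064 and 3522 in MG WT glands, 499, 748, 422 and 497 for MG N and 559, 1504, 436 and 1267 for MG NP. In the tumors Bag3 stood at 395, 456, 537 and 265 for T N and at 316, 276, 331 and 358 for T NP. MG WT was highest without overlap, the tumors were lowest on average, and among the neu glands MG NP replicates 2 and 4 were the highest, the same libraries as for the muscle markers. Bag3 was lower than in MG WT in MG N (log2 -2.51, SE 0.20, adjusted p = 3.29e-05). In MG NP it was called lower as well (log2 -1.87, SE 0.44, adjusted p = 0.0119), but not without MG WT replicate 3 (log2 -1.76, adjusted p = 0.0505). With the muscle marker score as a covariate the MG NP difference was larger (log2 -4.19, adjusted p = 0.0126), a value extrapolated between groups whose muscle sums do not overlap. Without the covariate, Bag3 differed more from MG WT in T N (log2 -2.92, SE 0.25, adjusted p = 1.14e-04) and T NP (log2 -3.24, SE 0.15, adjusted p = 1.31e-06) than in the glands. All 4 T NP values were below those of MG NP (log2 -1.37, SE 0.39, adjusted p = 0.0151). With MG NP replicates 2 and 4 left out, an alternative chosen after seeing the data, that difference fell under 2-fold (log2 -0.63, adjusted p = 0.0273). Adding the muscle marker score to the fit left Bag3 at a smaller difference (log2 -0.16, adjusted p = 0.822). T N against MG N was not called (log2 -0.40, SE 0.26, adjusted p = 0.227), and the groups overlapped. The part of muscle tissue in the Bag3 values of MG NP was not tested beyond these fits, and the covariate fits cannot separate it from the group.

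Hspb1 (ENSMUSG00000004951, chr5:135887919-135889563, plus strand) encodes the small heat-shock protein HSP25, which holds unfolded proteins until HSP70 takes them over. Normalized counts of Hspb1 were 3459, 4179 and 2485 in MG WT glands, 804, 923, 693 and 823 for MG N and 967, 3296, 1007 and 2707 for MG NP. In the tumors Hspb1 stood at 1142, 1682, 1389 and 721 for T N and at 2215, 1909, 2628 and 2994 for T NP. High values were spread over groups: MG WT, all T NP libraries and MG NP replicates 2 and 4 were high, and MG N was low. Hspb1 was called lower than in MG WT in MG N (log2 -2.03, SE 0.18, adjusted p = 5.64e-05) and in T N (log2 -1.49, SE 0.31, adjusted p = 0.00459), without overlap. In T NP the groups overlapped and the difference missed the threshold (log2 -0.46, SE 0.21, adjusted p = 0.0785). MG NP against MG WT was not called (log2 -0.94, SE 0.48, adjusted p = 0.146). With MG NP replicates 2 and 4 left out it was (log2 -1.74, adjusted p = 0.00114), and with the replicate number as a block it was as well (log2 -1.16, adjusted p = 0.0482). The muscle marker score as a covariate gave a larger difference that missed the threshold (log2 -3.14, adjusted p = 0.0541). Tumors and glands did not pass the test in Hspb1, with log2 0.55, SE 0.25, adjusted p = 0.0969 in the N pair and log2 0.48, SE 0.41, adjusted p = 0.344 in the NP pair. Leaving out MG NP replicates 2 and 4 turned the NP pair into a call, higher in T NP (log2 1.28, adjusted p = 0.00154), as did the covariate (log2 1.73, adjusted p = 0.0447). Of the 75-base words of the Hspb1 transcript, 47.3% also occur in the pseudogene Hsp25-ps1.

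Hspa8 (ENSMUSG00000015656, chr9:40800984-40810087, plus strand) encodes HSC70, the constitutive HSP70 of the cytosol. Normalized counts of Hspa8 were 24169, 20845 and 25258 in MG WT glands, 23445, 20422, 18754 and 16948 for MG N and 14711, 25605, 24998 and 34182 for MG NP. In the tumors Hspa8 stood at 36156, 42699.8, 41720.3 and 32717 for T N and at 28168, 29449, 36501 and 37166 for T NP. The tumors were high and the glands of all 3 groups overlapped, with MG NP replicate 1 the lowest library and MG NP replicate 4 within the range of the tumors. Hspa8 differed little from MG WT in MG N (log2 -0.24, SE 0.15, adjusted p = 0.199) and in MG NP (log2 0.03, SE 0.28, adjusted p = 0.94). Both tumor groups were above all MG WT libraries by less than 2-fold, with log2 0.71, SE 0.18, adjusted p = 0.0122 in T N and log2 0.48, SE 0.16, adjusted p = 0.0224 in T NP. T N was above MG N without overlap (log2 0.95, SE 0.18, adjusted p = 0.00239), just under 2-fold. It passed the fold threshold with TMM scaling (log2 1.03, adjusted p = 0.00157), without MG N replicate 1 (log2 1.03, adjusted p = 0.00397) or without T N replicate 4 (log2 1.02, adjusted p = 0.00386). In the NP pair the groups overlapped (log2 0.45, SE 0.26, adjusted p = 0.174). Of the 75-base words of Hspa8, 68.6% occur in another gene, most of them in the pseudogene Gm15459.

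Hsp90aa1 (ENSMUSG00000021270, chr12:110690605-110702728, minus strand) encodes HSP90 alpha, the stress-responsive HSP90 of the cytosol. Normalized counts of Hsp90aa1 were 13102, 10524 and 11165 in MG WT glands, 9559, 6124, 6102 and 6899 for MG N and 4975, 7106, 6615 and 9169.5 for MG NP. In the tumors Hsp90aa1 stood at 9942, 23174, 8913 and 9827 for T N and at 10738, 13055, 14262 and 12590.4 for T NP. T N replicate 2 was far above every other library, the remaining tumors were near MG WT, and most neu glands were lower. Hsp90aa1 was below MG WT in MG N (log2 -0.71, SE 0.18, adjusted p = 0.00905) and in MG NP (log2 -0.76, SE 0.21, adjusted p = 0.0223), without overlap and by less than 2-fold. With MG NP replicates 2 and 4 left out the MG NP difference passed 2-fold (log2 -1.01, adjusted p = 0.00373). The tumors did not differ from MG WT by the test, with log2 0.05, SE 0.33, adjusted p = 0.915 in T N and log2 0.13, SE 0.14, adjusted p = 0.431 in T NP. T NP was above MG NP without overlap (log2 0.89, SE 0.20, adjusted p = 0.00495), and passed the 2-fold threshold without MG NP replicate 4 (log2 1.03, adjusted p = 0.00189), without replicates 2 and 4 (log2 1.13, adjusted p = 0.00185) and with the muscle marker score as a covariate (log2 1.20, adjusted p = 0.0317). T N against MG N missed the threshold (log2 0.76, SE 0.31, adjusted p = 0.0705). A p that misses the threshold does not show that levels did not differ. Of the 75-base words of Hsp90aa1, 53.1% occur in another gene, most of them in Gm12346.

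Hspd1 and Hspe1 encode HSP60 and its partner HSP10, the folding chamber and lid of the mitochondrial matrix. The genes stand head to head on chromosome 1 (GRCm38), Hspd1 (ENSMUSG00000025980) on the minus strand at chr1:55077835-55088243 and Hspe1 (ENSMUSG00000073676) on the plus strand at chr1:55088132-55091307, and share 112 bases. Normalized counts of Hspd1 were 4276, 2532 and 4417 in MG WT glands, 6635, 5466, 5827 and 5768 for MG N and 4507, 7141, 5041 and 12590.2 for MG NP. In the tumors Hspd1 stood at 5488, 10836, 5457 and 6258 for T N and at 5951, 6494, 6719 and 6067 for T NP. MG WT was lowest in Hspd1, without overlap with any other group, and MG NP replicate 4 was the highest library. Hspd1 was above MG WT by less than 2-fold in MG N (log2 0.70, SE 0.20, adjusted p = 0.0154). The same direction was measured in MG NP (log2 0.89, SE 0.38, adjusted p = 0.0917), T N (log2 0.89, SE 0.30, adjusted p = 0.0365) and T NP (log2 0.80, SE 0.19, adjusted p = 0.00541). With the muscle marker score as a covariate the sign in MG NP turned (log2 -0.25, adjusted p = 0.868). Tumors and glands overlapped in Hspd1 and did not pass the test, with log2 0.18 in the N pair and -0.09 in the NP pair. The sign of the N pair turned to -0.05 without T N replicate 2. That of the NP pair turned without MG NP replicate 4 (log2 0.21, adjusted p = 0.336), with MG NP replicates 2 and 4 left out (log2 0.40, adjusted p = 0.0259) and with the covariate (log2 0.53, adjusted p = 0.424).

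Normalized counts of Hspe1 were 877, 623 and 673 in MG WT glands, 1150.1, 1067, 1243 and 1310.0 for MG N and 994, 1330.3, 1114 and 2714 for MG NP. In the tumors Hspe1 stood at 1157, 2773, 1512 and 1451 for T N and at 1255, 1578, 1504 and 1179.9 for T NP. MG WT was lowest here too, without overlap with any other group, and T N replicate 2 and MG NP replicate 4 were highest. Compared with MG WT, Hspe1 was called higher in T N (log2 1.18, SE 0.30, adjusted p = 0.0107), a call that was lost without T N replicate 2 (log2 0.93, adjusted p = 0.00657, under 2-fold). Hspe1 in T NP stayed under 2-fold (log2 0.93, SE 0.16, adjusted p = 9.43e-04), and passed it without MG WT replicate 1 (log2 1.08, adjusted p = 0.00111) or T NP replicate 4 (log2 1.01, adjusted p = 0.0013). With the replicate number as a block it passed 2-fold too (log2 1.01, adjusted p = 0.00552). In MG N it was log2 0.73, SE 0.15, adjusted p = 0.00308. In MG NP it was log2 0.98, SE 0.35, adjusted p = 0.0515, and Hspe1 was called there without MG NP replicate 1 (log2 1.15, adjusted p = 0.0378), without MG NP replicate 3 (log2 1.09, adjusted p = 0.0478), and by edgeR (log2 1.12, adjusted p = 0.0474) and DESeq2 (log2 1.12, adjusted p = 0.0168). It fell without MG NP replicate 4 (log2 0.67, adjusted p = 0.0295), with MG NP replicates 2 and 4 left out (log2 0.55, adjusted p = 0.0428), and to almost 0 with the muscle marker score as a covariate (log2 0.05, adjusted p = 0.976). With the replicate number as a block it was lower too (log2 0.67, adjusted p = 0.0789). Tumors against glands gave log2 0.45, adjusted p = 0.157 in the N pair and log2 -0.05, adjusted p = 0.904 in the NP pair, whose sign turned with the covariate (log2 0.45, adjusted p = 0.525), without MG NP replicate 4 (log2 0.27, adjusted p = 0.198) or replicates 2 and 4 (log2 0.38, adjusted p = 0.0821), without T NP replicate 4 (log2 0.02, adjusted p = 0.956) and with TMM scaling (log2 0.01, adjusted p = 0.985). Of the 75-base words of the transcripts, 33.7% of those of Hspd1 occur in another gene, most of them in the pseudogene Hspd1-ps3, and 29.1% of those of Hspe1, most of them in AC117239.2.

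**Figure D2:**
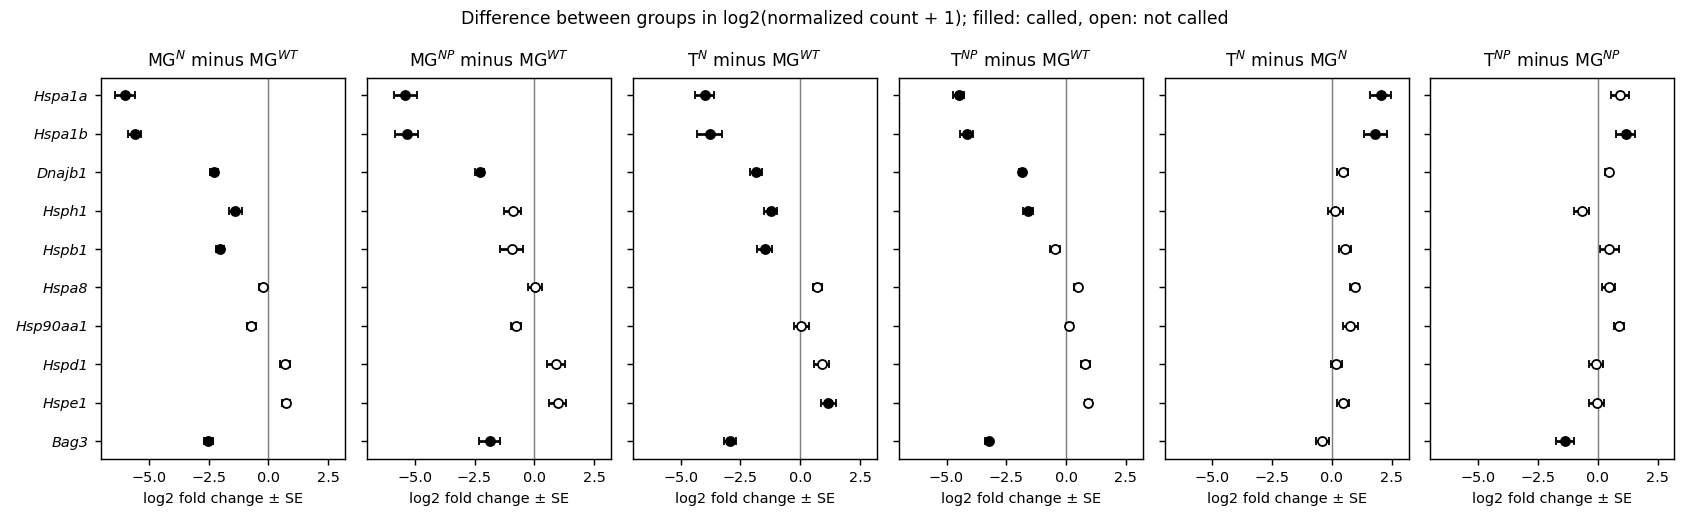
Log2 differences with standard errors for the 10 heat-shock chaperone genes in the 4 comparisons with MG WT and in the tumor and gland pairs. Points are filled where called at an adjusted p under 0.05 and at least 2-fold. Hspa1a and Hspa1b reach -6.01 and -5.59 in MG N against MG WT, and Hspd1 and Hspe1 lie above 0 in each of the 4 comparisons with MG WT.

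A gene was called when its adjusted p was under 0.05 and its difference at least 2-fold in limma over all genes tested. In MG N against MG WT, which asks how glands of neu mice differ from normal glands, 6 of the 10 members were called lower and 0 higher, where 17.9% of 19017 genes were called lower and 19.1% higher. In MG NP against MG WT, 4 members were called lower and 0 higher, beside 16.2% and 16.4% of all genes. In T N against MG WT, 6 members were called lower and 1, Hspe1, higher, beside 25.0% and 17.4% of all genes. In T NP against MG WT, 5 members were lower and 0 higher, beside 28.0% and 19.8% of all genes. The call of Bag3 in MG NP was lost without MG WT replicate 3 (log2 -1.76, adjusted p = 0.0505), and that of Hspe1 in T N without T N replicate 2 (log2 0.93, adjusted p = 0.00657). These 4 comparisons share the 3 MG WT libraries, whose read totals were more than those of all other libraries. In MG N against the same libraries all 9 white adipocyte markers were called higher, with a median of 10.29, and all 9 luminal, 7 basal and 16 immediate early genes lower. Whether MG WT glands were prepared in another way is not stated, and the part of these differences in the member calls was not tested. Hspa1a, Hspa1b, Dnajb1 and Bag3 were called lower in all 4, whereas Hspa8, Hsp90aa1 and Hspd1 were called in none. The differences of the 10 members had medians of -1.71, -0.93, -1.36 and -1.03 in that order, against 0.02, 0.02, -0.09 and -0.08 over all genes. The edgeR fit on recovered reads moved the median of all genes in T N against MG WT by 0.12, and TMM scaling of the recovered reads by 0.01.

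The tumor and gland pairs ask which genes change from gland to tumor under each fibroblast genotype. In the N pair the labels are not matched, as T N carries Fsp-Cre and most MG N libraries carry the conditional p53 allele without Cre. Tissue is thus mixed with these labels in the N pair and in the interaction below, and their part was not tested. T N against MG N called 2 members higher, Hspa1a and Hspa1b, and 0 lower, where 12.8% of 17950 genes were called higher and 22.3% lower. T NP against MG NP called 1 member higher, Hspa1b, and 1 lower, Bag3, where 14.7% of 17880 genes were higher and 24.0% lower. The call of Hspa1b was lost without any 1 of MG NP replicates 1, 3 or 4 or T NP replicates 1 to 4, with adjusted p from 0.0522 to 0.0937. That of Bag3 was lost with the muscle marker score as a covariate (log2 -0.16, adjusted p = 0.822) and with MG NP replicates 2 and 4 left out (log2 -0.63, adjusted p = 0.0273). Muscle sums were at most 7647 in T NP and at least 13998 in MG NP, so the covariate cannot be separated from the group. In the covariate fit Hspa1b was lost too, and Hspb1 and Hsp90aa1 were called higher instead. Of all 17880 genes that fit called 1611 higher and 2556 lower, against 2625 and 4300 without the covariate. Hspa1a was called without MG NP replicate 2 (log2 1.32, adjusted p = 0.00249) and Hsp90aa1 without MG NP replicate 4 (log2 1.03, adjusted p = 0.00189). Member medians were 0.50 and 0.45, against -0.05 and -0.07 over all genes. In both pairs 8 of 9 luminal markers were called higher and 1 lower, with medians of 2.40 in N and 2.64 in NP. All 9 white adipocyte markers were called lower (medians -8.50 and -7.45), and in the NP pair all 17 muscle markers were lower (median -7.61). The part of these markers in the member calls was not tested. Whether the tumor-gland difference itself differed between NP and N was tested as an interaction. None of the 10 members was called in it by limma, beside 0.0% of 19367 genes, and none by edgeR (0.0% of genes) or DESeq2 (1.7% of genes). At an unadjusted p under 0.05 the interaction had 0 members by limma, 1 by edgeR and 1 by DESeq2, and 1536 of all genes by limma. The interaction terms of largest size among the 10 members were those of Hspa1a (log2 -1.11, SE 0.63, adjusted p = 0.704) and Bag3 (log2 -0.97, SE 0.49, adjusted p = 0.655). The calls of Hspa1a in the N pair and of Bag3 in the NP pair are therefore not shown to differ between genotypes.

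Mutant against wild-type p53 in fibroblasts was compared within glands and within tumors. In glands, limma called 0 of 10 members and 0.0% of 18563 genes, edgeR 0 members and 0.0% of genes, and DESeq2 0 members and 2.81% of genes. At an unadjusted p under 0.05 each tool had 1 of 10 members, and limma 1950 of all genes (10.5%), so the members were near the share of all genes. In limma that member was Hspb1, higher in MG NP than in MG N (log2 1.09, SE 0.41, adjusted p = 0.396). In tumors, limma called 0 of 10 members and 0.0421% of 16638 genes, edgeR 0 members and 0.0% of genes, and DESeq2 0 members and 0.515% of genes. There too each tool had 1 of 10 members at an unadjusted p under 0.05, with 1210 of all genes (7.27%) by limma, again near the share of all genes. In limma this member was Hspb1, higher in T NP than in T N (log2 1.03, SE 0.26, adjusted p = 0.589). Unadjusted, p was 0.0275 in glands and 0.00367 in tumors. Neither Hspb1 difference passes the adjusted threshold, and the gland difference was log2 0.29, adjusted p = 0.365 with MG NP replicates 2 and 4 left out. For the other 9 members the log2 difference between MG NP and MG N ran from -0.05 (Hsp90aa1) to 0.64 (Bag3), with overlapping groups. Bag3 turned to -0.35 with the muscle marker score as a covariate and to -0.10 with MG NP replicates 2 and 4 left out. Hspd1 (-0.28 and -0.31) and Hspe1 (-0.03 and -0.18) turned in both fits as well, Hspa1a with the covariate (-0.02) and Hspa8 with the 2 libraries left out (-0.04). Between T NP and T N the log2 difference of these 9 ran from -0.49 (Hspa1a) to 0.08 (Hsp90aa1), with overlapping groups.

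Levels of different genes were compared per kb of exon. Hspa8 was the most abundant member per kb in each group but MG WT, at 4625 normalized counts per kb in MG N, 5783 in MG NP, 8910.3 in T N and 7631 in T NP. In MG WT Hspa1b came before it, with 6865 ± 2214 (SD, n = 3) per kb against 5446 ± 535 (SD, n = 3) for Hspa8, which is within the spread of Hspa1b. Hspa1a stood at 3309 per kb in MG WT, behind both. The same gene was the least abundant member per kb in MG N and MG NP, at 55.0 and 87.2. In the tumors Bag3 was the least abundant, at 161 per kb in T N and 125 in T NP.

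Over 19 libraries centred on their group means, each member correlated with the mean of the other 9 at an r of 0.58 to 0.79. Bag3 with Hspb1 (r = 0.87), Hspd1 with Hspe1 (r = 0.90) and Hspa1a with Hspa1b (r = 0.83) were the closest pairs. Not all pairs moved together, and the lowest r was 0.04, between Bag3 and Dnajb1. The mean log2 of the 10 members was farthest above its group in T N replicate 2, by 0.71, and MG NP replicate 2, by 0.51. It was farthest below in MG NP replicate 1, by -0.57. Outside the lists, the genes most like the member mean among 14599 were Polr2j (r = 0.84), Ccdc9b (0.84), Trmt1l (0.84), Gatb (0.83) and Acp6 (0.82), over the same 19 libraries. Without T N replicate 2 these r values were 0.77, 0.72, 0.71, 0.80 and 0.71, at ranks 71, 227, 245, 44 and 265, so their place at the top rests on that library. The correlations are descriptions.

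Promoters of the members were searched for the letters that heat-shock factors are known to bind, inverted repeats of GAA. RefSeq promoter windows (GRCm38.p6, 250 bases before to 50 after the start) were matched for 8 of the 10 members, in 11 windows, with no entry for Hspa8 and Hsp90aa1. The motifs GAANNTTC and TTCNNGAA each read the same on both strands and can overlap each other. Either motif was found in 8 of the 11 member windows (72.7%) and in 4946 of 32851 windows of all genes (15.1%). By gene, 7 of 8 members (87.5%) held either motif, against 4587 of 27025 genes. Runs of 3 units, in which the motifs overlap by 3 letters, were in 4 member windows (36.4%) and in 0.6% of all windows. They belong to Hspd1 and Hspe1, whose windows overlap on opposite strands, and to both windows of Hsph1, which also overlap. Dnajb1 had neither motif in its windows, and Bag3 had GAANNTTC 42 bases after the start. Hspa1a and Hspa1b each held GAANNTTC 104 bases before the start, and Hspb1 held it 117 and 97 bases before. The 250 bases before the start are given for these 3 genes, 5′ to 3′ on the strand of the gene, with matches to GAANNTTC in capitals: Hspa1a at chr17:34972157-34972406 on the minus strand, Hspa1b at chr17:34959239-34959488 on the minus strand, and Hspb1 at chr5:135887669-135887918 on the plus strand.
Hspa1a: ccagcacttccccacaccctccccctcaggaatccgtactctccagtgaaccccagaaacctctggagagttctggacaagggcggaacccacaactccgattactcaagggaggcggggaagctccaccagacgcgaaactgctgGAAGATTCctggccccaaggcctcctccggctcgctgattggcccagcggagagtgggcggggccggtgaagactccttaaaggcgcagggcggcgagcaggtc
Hspa1b: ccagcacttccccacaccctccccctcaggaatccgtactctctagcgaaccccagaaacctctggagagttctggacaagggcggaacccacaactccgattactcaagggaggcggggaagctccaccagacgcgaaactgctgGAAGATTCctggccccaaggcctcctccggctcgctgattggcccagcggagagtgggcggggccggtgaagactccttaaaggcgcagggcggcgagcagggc
Hspb1: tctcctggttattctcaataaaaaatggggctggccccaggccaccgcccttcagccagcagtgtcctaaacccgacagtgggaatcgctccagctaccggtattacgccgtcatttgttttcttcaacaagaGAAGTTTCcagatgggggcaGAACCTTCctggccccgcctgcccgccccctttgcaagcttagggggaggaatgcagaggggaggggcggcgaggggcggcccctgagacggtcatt
The windows of Hspa1a and Hspa1b differ at 4 of 300 bases, 3 of them before the start. Counted from 1 at the 5′ end of the window, with the base of Hspa1a before the position and that of Hspa1b after it, these are C44T, T47C, T249G and C276T. A match is a description of letters and not evidence of binding.

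Heat-shock factors and immediate early genes were read beside the members. Hsf1, the main inducer of the members under stress, was at 1349, 1178 and 1429 in MG WT and at 493, 670.0, 541 and 587 in MG N. It was lower than in MG WT in MG N (log2 -1.21, SE 0.14, adjusted p = 1.82e-04), T N (log2 -1.10, SE 0.16, adjusted p = 9.29e-04) and T NP (log2 -1.36, SE 0.13, adjusted p = 2.89e-05), and by less than 2-fold in MG NP (log2 -0.64, SE 0.16, adjusted p = 0.016). Of the heat-shock factor list, calls against MG WT were 1 higher and 2 lower of 5 (median -0.26) in MG N, 1 higher and 0 lower of 5 (median 0.23) in MG NP, 1 higher and 2 lower of 5 (median -0.99) in T N and 1 higher and 3 lower of 5 (median -1.36) in T NP. For tumors against glands they were 0 higher and 1 lower of 4 (median -0.15) in the N pair and 0 higher and 1 lower of 4 (median -0.75) in the NP pair. The medians over all genes given with the member counts apply to these and the following lists. Hsf4 was lower in tumors than in glands (log2 -1.44, adjusted p = 0.0114 in N, log2 -2.58, adjusted p = 3.91e-04 in NP). Hsbp1, which encodes a factor that binds HSF1, was higher than in MG WT in T N (log2 1.41, adjusted p = 1.68e-04) and T NP (log2 1.42, adjusted p = 1.30e-05). The 16 immediate early genes, which respond to a stimulus within minutes, summed to 412855, 546442 and 535447 normalized counts in MG WT against 8777 to 24555 in the other 16 libraries. Fos, the most abundant of them in MG WT, was at 81338, 99729.6 and 100009 in MG WT and at 233, 531, 559.7 and 169.9 in MG N. All 16 were called lower than in MG WT in both neu gland groups, and 15 of 16 in both tumor groups. Their medians were -5.86 in MG N, -5.38 in MG NP, -5.40 in T N and -5.35 in T NP. Fosb fell furthest in MG N (log2 -10.78, adjusted p = 8.42e-06), followed by Fos (log2 -8.14, adjusted p = 3.27e-06). Tumors against glands had 5 higher and 1 lower of 15 (median 0.11) in the N pair, with Ier3 log2 4.83, adjusted p = 1.39e-04, and 5 higher and 1 lower of 15 (median 0.37) in the NP pair, with Ier3 log2 4.81, adjusted p = 7.81e-06. Compared as a group with the neu glands, MG WT was thus high in inducible chaperones and immediate early genes and low in fat cell genes. Within MG WT the order of libraries was not the same for Hspa1a and Hspa1b as for immediate early genes. The part of immediate early and fat cell genes in the member differences was not tested.

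**Figure D3:**
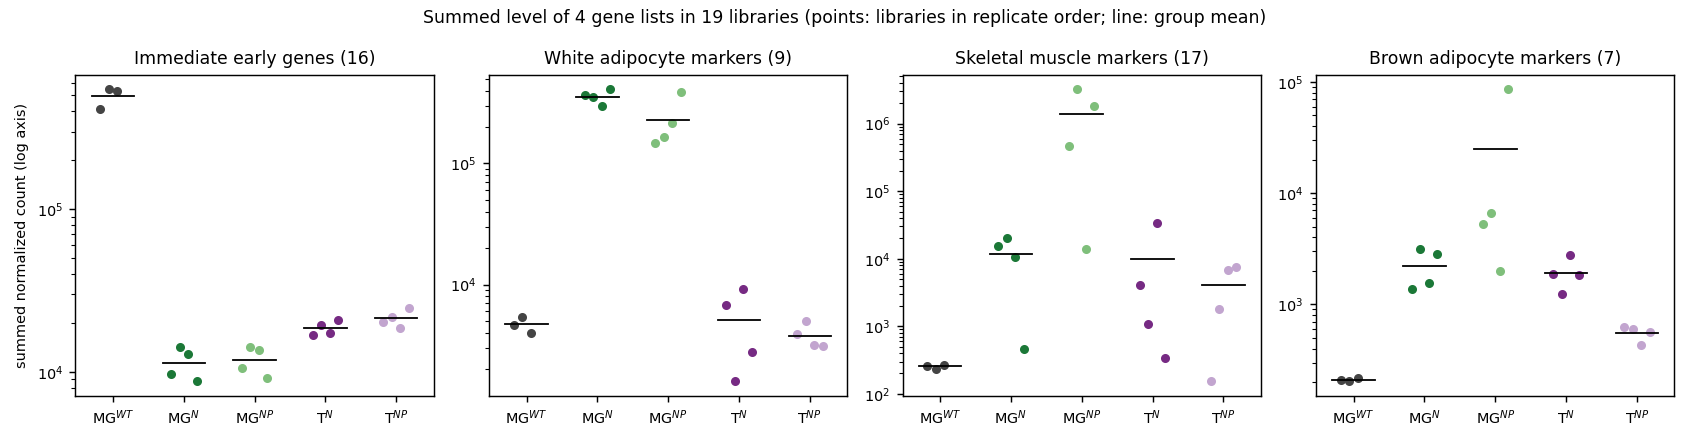
Summed normalized counts on a log axis for immediate early genes and for white adipocyte, skeletal muscle and brown adipocyte markers. Libraries are grouped by tissue and genotype, with each point a library and each bar the group mean. Immediate early genes sum to 412855 or more in each MG WT library and to 24555 or less in all others.

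Other chaperone lists were counted in the same way, each list with its median log2 difference in parentheses. Calls in other HSP70 and HSP110 genes against MG WT were 2 higher and 2 lower of 7 (median -0.28) in MG N, 1 higher and 1 lower of 7 (median 0.49) in MG NP, 0 higher and 3 lower of 7 (median -0.16) in T N and 1 higher and 3 lower of 7 (median 0.14) in T NP. Tumors against glands had 1 higher and 2 lower of 6 (median 0.25) in the N pair and 1 higher and 3 lower of 7 (median -0.17) in the NP pair. Hspa2 was lower than in MG WT in MG N (log2 -1.70, adjusted p = 1.18e-04), and higher in tumors than in glands (log2 2.26, adjusted p = 3.07e-04 in N, log2 2.74, adjusted p = 2.18e-05 in NP). Hspa12a, by contrast, was higher in MG N than in MG WT (log2 3.33, adjusted p = 6.68e-06) and lower in tumors than in glands (log2 -4.79, adjusted p = 6.96e-05 in N, log2 -3.80, adjusted p = 2.38e-05 in NP). Other J-domain proteins had 0 higher and 0 lower of 9 (median -0.30) in MG N, 0 higher and 0 lower of 9 (median 0.01) in MG NP, 0 higher and 3 lower of 9 (median -0.39) in T N and 0 higher and 2 lower of 9 (median -0.54) in T NP, and for tumors against glands 0 higher and 0 lower of 9 (median -0.09) in the N pair and 0 higher and 2 lower of 9 (median -0.21) in the NP pair. Where limma called 0 of these 9, an unadjusted p under 0.05 was found for 6 in MG N, 2 in MG NP and 4 in the N pair. The share of all genes at that p in limma was 63.6% in MG N, 54.7% in MG NP and 58.0% in the N pair. In these comparisons edgeR also called 0 of the 9, and DESeq2 called 1 in MG NP and 0 in the others. Dnaja1 was lower than in MG WT in T N (log2 -1.27, adjusted p = 0.00607) and T NP (log2 -1.06, adjusted p = 5.93e-05). Other small heat-shock proteins, several of which are muscle proteins, had 1 higher and 0 lower of 5 (median 0.55) in MG N, 4 higher and 0 lower of 6 (median 3.59) in MG NP, 0 higher and 0 lower of 5 (median -0.40) in T N and 0 higher and 1 lower of 5 (median -0.31) in T NP, and for tumors against glands 0 higher and 0 lower of 5 (median -0.66) in the N pair and 0 higher and 4 lower of 5 (median -3.47) in the NP pair. Both T N comparisons of this list, with 0 calls by limma, had 0 genes at an unadjusted p under 0.05 and 0 calls by edgeR and DESeq2. Of all genes, limma had 61.9% at that p in T N against MG WT and 58.0% in the N pair. The counts of this list in both MG NP comparisons stand beside the muscle markers, of which all 17 were called higher in MG NP than in MG WT (median 10.42). With the muscle score as a covariate Hspb3 in MG NP against MG WT turned from log2 5.48, adjusted p = 0.0163 to log2 -2.91, adjusted p = 0.06. Hspb6 turned from log2 3.87, adjusted p = 0.0452 to log2 -4.02, adjusted p = 0.0214. Muscle sums were at most 271 in MG WT and at least 13998 in MG NP, so these values are extrapolated and show no reversal. In T NP against MG NP Hspb6 went from log2 -4.18, adjusted p = 0.0131 to log2 -0.19, adjusted p = 0.917, and Hspb7 turned from log2 -5.02, adjusted p = 0.0336 to log2 1.14, adjusted p = 0.633. The same covariate brought other calls in MG NP to an adjusted p over 0.05. Against MG WT these were Hspa2 (log2 -1.52, adjusted p = 0.14) and Hspa12a (log2 2.56, adjusted p = 0.0561). In the NP pair they were Dnajb5 (log2 -0.40, adjusted p = 0.704) and Dnajb4 (log2 0.16, adjusted p = 0.85). Mean Hspa2 was 263.8 in MG NP and 832.2 in MG WT, and mean Hspa12a 1108.1 and 216.5. Over all 19065 genes the covariate took calls against MG WT from 3136 higher and 3081 lower to 817 and 1176.

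HSP90 beta and the cochaperones of HSP90 and HSP70 had 1 higher and 2 lower of 18 (median 0.23) in MG N, 2 higher and 1 lower of 18 (median 0.35) in MG NP, 7 higher and 1 lower of 18 (median 0.67) in T N and 7 higher and 0 lower of 18 (median 0.59) in T NP against MG WT, and 3 higher and 0 lower of 18 (median 0.57) in the N pair and 3 higher and 0 lower of 18 (median 0.43) in the NP pair for tumors against glands. Bag1, a nucleotide exchange factor of HSP70, was higher than in MG WT in all 4 groups, from log2 2.05, adjusted p = 0.00171 in MG NP to log2 2.61, adjusted p = 2.57e-06 in T NP, opposite in direction to its relative Bag3. Once the muscle score was added as a covariate, the MG NP difference of Bag1 was not past the threshold (log2 0.86, adjusted p = 0.338), and that of Sugt1, the other gene called higher there, turned from log2 1.05, adjusted p = 0.0303 to log2 -0.65, adjusted p = 0.299. The cytosolic chaperonin had 0 higher and 0 lower of 8 (median 0.19) in MG N, 0 higher and 0 lower of 8 (median 0.22) in MG NP, 4 higher and 0 lower of 8 (median 1.01) in T N and 4 higher and 0 lower of 8 (median 1.02) in T NP, and 1 higher and 0 lower of 8 (median 0.80) in the N pair and 1 higher and 0 lower of 8 (median 0.83) in the NP pair for tumors against glands. The 0 calls by limma in MG N and MG NP stand beside 2 genes in each at an unadjusted p under 0.05, and edgeR and DESeq2 called 0. The share of all genes at that p in limma was higher, at 63.6% in MG N and 54.7% in MG NP. Cct7, 1 of its subunits, was higher in T N than in MG N (log2 1.29, adjusted p = 4.40e-04). Other mitochondrial chaperones and proteases share the compartment of Hspd1 and Hspe1. Against MG WT they had 3 higher and 0 lower of 8 (median 0.85) in MG N and 4 higher and 0 lower of 8 (median 1.10) in MG NP. In T N there were 4 higher and 0 lower of 8 (median 1.01), and in T NP 5 higher and 0 lower of 8 (median 1.07). For tumors against glands there were 0 higher and 0 lower of 8 in the N pair (median 0.07) and in the NP pair (median -0.16). In the tumor and gland pairs limma, edgeR and DESeq2 each called 0 of them. At an unadjusted p under 0.05 limma had 2 in the N pair and 0 in the NP pair, beside 58.0% and 61.2% of all genes. Trap1 was higher in MG N than in MG WT (log2 1.36, adjusted p = 1.30e-04), as was Clpp (log2 1.21, adjusted p = 1.35e-04). In MG NP the covariate took Trap1 to log2 0.70, adjusted p = 0.507 and Grpel1 to log2 0.12, adjusted p = 0.929, neither of them a call. Endoplasmic reticulum chaperones had 2 higher and 1 lower of 10 (median 0.41) in MG N, 0 higher and 0 lower of 10 (median 0.17) in MG NP, 7 higher and 0 lower of 10 (median 1.46) in T N and 6 higher and 0 lower of 10 (median 1.35) in T NP, and 6 higher and 0 lower of 10 (median 1.14) in the N pair and 6 higher and 0 lower of 10 (median 1.10) in the NP pair for tumors against glands. In MG NP edgeR and DESeq2 called 0 as limma did, with 5 of the 10 genes at an unadjusted p under 0.05 in limma, beside 54.7% of all genes. Hspa5, the HSP70 of that compartment, was higher in T N than in MG N (log2 1.55, adjusted p = 0.00153) and in T NP than in MG NP (log2 1.52, adjusted p = 3.89e-04).

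The groups also differed in the other cell marker lists, whose part in the member results was not tested. The 7 fibroblast genes, with Col3a1 the most abundant over all 19 libraries, summed to 39183 to 64887 in MG WT, 145119 to 487703 in MG N, 66070.1 to 153124 in MG NP, 29049 to 269315 in T N and 26871 to 55736 in T NP. The 6 endothelial genes, with Pecam1 the most abundant over all 19 libraries, summed to 9311 to 13926 in MG WT, 14537 to 26503 in MG N, 12726 to 24788 in MG NP, 3224 to 5388 in T N and 2869 to 4749.9 in T NP. The 6 macrophage genes, with Lyz2 the most abundant over all 19 libraries, summed to 3408 to 5925 in MG WT, 24853 to 55527 in MG N, 17169 to 34199 in MG NP, 5881 to 22675 in T N and 9570.2 to 13265 in T NP. The 6 T cell genes, with Cd4 the most abundant over all 19 libraries, summed to 604 to 988 in MG WT, 978 to 3534 in MG N, 294 to 4218 in MG NP, 44.2 to 237 in T N and 42.6 to 215 in T NP. The 6 B cell genes, with Ms4a1 the most abundant over all 19 libraries, summed to 1205 to 2392 in MG WT, 95.4 to 7976 in MG N, 276 to 13983 in MG NP, 24.2 to 492 in T N and 23.5 to 386 in T NP. The 7 milk protein genes, with Csn3 the most abundant over all 19 libraries, summed to 7351 to 14653 in MG WT, 2685 to 184024 in MG N, 4915 to 103282 in MG NP, 82301 to 754427 in T N and 342602 to 501973 in T NP. Luminal markers summed to 9992 to 32096 in MG NP, 103576 to 193160.5 in T N and 116702 to 160027 in T NP, and basal markers to 8810.5 to 19623, 1339 to 4934 and 1959 to 3419. White adipocyte markers summed to 1594 to 9156 in T N and 3090.2 to 5005 in T NP, and brown adipocyte markers to 1232 to 2807 and 435 to 626. Skeletal muscle markers summed to 337 to 33508 in T N and 154 to 7647 in T NP. Over all 19 libraries the most abundant genes of these lists were Krt18 among luminal, Acta2 among basal, Fabp4 among white adipocyte and Ucp1 among brown adipocyte markers, but not in every group.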

How the data were processed

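RNA from 11 mammary glands and 8 tumors was sequenced. The authors aligned reads to GRCm38 with TopHat2 2.1.1 and Bowtie2, by the processing notes submitted with the samples. The deposited table holds the authors' signal, counts normalized with DESeq2, for 46078 genes in 19 libraries. The study names an mRNA library kit and the labels name a total RNA kit, and the counting tool, annotation and strand setting are not given in the sources used here. Dividing each library by its smallest step gave whole reads for 100% of values within 0.05, and the sum was taken as reads on genes.

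Genes with at least 10 normalized counts in as many libraries as the smaller group were tested with limma 3.58.1 (R 4.3.3) on log2(normalized count + 1), with a trend, each comparison on its own libraries. Adjusted p-values are Benjamini-Hochberg over all genes tested, and a call needed an adjusted p under 0.05 and a 2-fold difference. The interaction was fitted over the 4 neu groups. edgeR 4.0.16 and DESeq2 1.42.0 were run on recovered reads. Other alternatives were pseudocounts of 0.5 and 5, no filter, a mean filter of 50, TMM scaling of recovered reads, no fold threshold and all 5 groups in a single fit. Further ones were a replicate block, each library left out, a muscle marker score as covariate, and T NP replicates 1 and 2 averaged. Leaving out MG NP replicates 2 and 4 together was chosen after seeing the data. The code was tested on simulated data.

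Members, the other chaperone and immediate early lists and the 11 cell marker lists were chosen with earlier results of these data known. Genes named are all members, Hsf1, the most abundant gene of marker lists, up to 2 called genes in each direction per list and comparison, and the 5 genes with a mean of at least 50 most like the members. Called list genes are given where the call was kept in each fit with a library left out, or the muscle covariate changed it. Hspa14 was not matched. Positions and transcript words come from GENCODE vM21, promoters from RefSeq.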

Additional observations from a re-analysis of the deposited data

Results flagged for a closer look

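In each group of 4 libraries the highest and lowest values of each member were compared with their nearest neighbour, and a value was picked out where that gap, divided by the range of the group, was above the 95% critical value of Dixon for 4 samples. Gaps and ranges were taken on log2(normalized count + 1), and the ratios below are on that scale. Of 40 sets of values tested, 2 met this. Chance alone picks out about 1 in 20 groups, which for 40 sets comes to the same number. Hsph1 in MG N replicate 3 was at 934.4 normalized counts, far below the other 3 libraries of its group, with a ratio of 0.851. Hsp90aa1 in T N replicate 2 was at 23173.7, far above the other 3 T N libraries, with a ratio of 0.886. Causes were not tested.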

How the results depend on the processing

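Of 175 alternative counts of members called, 162 were within 1.5 times the count in the report. Of 1251 member differences called neither in the report nor in the alternative, 74 had the other sign, and 0 of those called in either had the other sign. In MG N against MG WT, T N against MG WT and T N against MG N no alternative tried moved the count of called members by more than 1.5 times.

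In MG NP against MG WT the count rose from 4 to 7 with MG NP replicates 2 and 4 left out, an alternative chosen after seeing the data. Over all genes that fit called 3599 higher and 3109 lower of 19272, against 3136 and 3081 of 19065 in the report. For T NP against MG WT the count of members rose from 5 to 8 with no fold threshold. Of all 18233 genes, 5956 were then called higher and 6749 lower, against 3611 and 5099 with the threshold. In T NP against MG NP, where 2 members were called, the count was 1 with edgeR, 4 with no fold threshold, 1 with T NP replicates 1 and 2 averaged and 4 with MG NP replicates 2 and 4 left out. With the replicate number as a block it was 1. In these 3 fits with a count of 1 Hspa1b was lost and Bag3 was kept. The muscle score as a covariate kept the count at 2 but changed the genes, as Hspa1b and Bag3 were lost and Hspb1 and Hsp90aa1 were called higher. Leaving out each library in turn gave 1 to 3. Over all genes in this pair the report called 2625 higher and 4300 lower of 17880. These were 2594 and 4420 with edgeR, 4689 and 5240 with no fold threshold, and 2574 and 4123 with the block. They were 1611 and 2556 with the covariate. With T NP replicates 1 and 2 averaged they were 2526 and 4453 of 18596. With MG NP replicates 2 and 4 left out they were 2515 and 4556 of 18934. The cause of these changes was not tested.

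Signs turned as follows, each value a log2 difference, and the cause was not tested. The muscle sums of the groups compared in this paragraph do not overlap, so the covariate cannot be separated from the group. In MG NP against MG WT the muscle score as a covariate gave Hspa8 -0.24, Hspd1 -0.25, Hspb3 -2.91, Hspb6 -4.02 and Sugt1 -0.65, and leaving out MG NP replicates 2 and 4 gave Hspa8 -0.28. With the replicate number as a block Hspa8 was -0.14. In T NP against MG NP the covariate gave Hspd1 0.53, Hspe1 0.45, Dnajb4 0.16 and Hspb7 1.14, leaving out replicates 2 and 4 of MG NP gave Hspd1 0.40 and Hspe1 0.38, and TMM scaling gave Hspe1 0.01.

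In MG NP against MG N the covariate gave Bag3 -0.35, Hspa1a -0.02, Hspd1 -0.28 and Hspe1 -0.03, and leaving out MG NP replicates 2 and 4 gave Bag3 -0.10, Hspa8 -0.04, Hspd1 -0.31 and Hspe1 -0.18. In T NP against T N edgeR gave Dnajb1 -0.04 and Hsp90aa1 -0.03, and DESeq2 gave Dnajb1 -0.05 and Hsp90aa1 -0.04. In the interaction Dnajb1 was -0.03 with edgeR and -0.05 with DESeq2. With MG NP replicates 2 and 4 left out the interaction was -0.03 for Dnajb1, 0.74 for Hspb1 and 0.22 for Hspd1. The causes were not tested.

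Leaving out each library in turn changed the sign of these differences, none of them called. In MG NP against MG WT Hspa8 ran from -0.14 to 0.26, and in T N against MG WT Hsp90aa1 ran from -0.27 to 0.19. In T N against MG N Hspd1 ran from -0.05 to 0.28 and Hsph1 from -0.12 to 0.27. For T NP against MG NP Hspd1 ran from -0.29 to 0.21 and Hspe1 from -0.22 to 0.27. In MG NP against MG N the ranges were -0.10 to 0.08 for Dnajb1, -0.19 to 0.10 for Hsp90aa1, -0.12 to 0.56 for Hspa1b, -0.12 to 0.38 for Hspd1 and -0.06 to 0.42 for Hspe1. Between T NP and T N they were -0.14 to 0.20 for Dnajb1, -0.06 to 0.40 for Hsp90aa1, -0.63 to 0.14 for Hspa1b, -0.19 to 0.14 for Hspd1 and -0.41 to 0.01 for Hspe1. In the interaction they were -0.14 to 0.20 for Dnajb1, -0.02 to 0.45 for Hsp90aa1, -0.34 to 0.25 for Hspb1 and -0.47 to 0.02 for Hspd1.

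Libraries with the same replicate number were correlated between -0.28 and 0.32 after centring on their groups, and in T NP against MG WT all 3 pairs were most alike with their own number, at 0.02 to 0.10. The replicate block was therefore an alternative and not the test of the report. Depth did not limit the members, each far above 3 reads in each library.

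Limits are the small groups, the MG WT libraries with their own depth and markers, and the muscle and brown fat transcripts in MG NP. Another limit is the mix of genotypes in MG N, most of whose libraries differ in label from T N. Whether T NP replicates 1 and 2 come from 1 animal is not stated. Sequence shared with related genes limits how reads of Hspa1a, Hspa1b, Hspa8, Hsp90aa1, Hspb1, Hspd1 and Hspe1 can be assigned. Protein levels were not analysed here.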
